A study of Mus musculus with 8 samples.

Results

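The 10 genes of a p53 pathway list were followed on 8 Illumina mouse bead arrays: Trp53 itself and Cdkn1a, Mdm2, Ccng1, Bbc3, Bax, Trp53inp1, Gadd45a, Gadd45b and Sesn1. The members were all rows of the probe table that carried 1 of these 10 gene symbols, which gave 21 probes of 25697. All 10 genes had at least 1 probe, and all 21 probes were among the 13868 tested, which are those with a detection p under 0.05 on 2 or more arrays. Cdkn1a, Mdm2, Ccng1 and Bbc3 had 3 probes each, Trp53inp1, Gadd45a and Sesn1 had 2, and Trp53, Bax and Gadd45b had 1. RNA came from macrophages grown from bone marrow of female C57bl/6J mice, 8 weeks old, in GM-CSF (10 ng/ml) for 7 days. The mice were wild type (WT) or deficient in inducible nitric oxide synthase (iNOS-/-). By the study's methods the deficient mice carried a germline Nos2 tm1Lau allele in a B6.129P2 strain. Trp53 and Ccng1 lie on chromosome 11 with Nos2, so linked strain differences cannot be told apart from effects of the allele. The macrophages either received no stimulus or were exposed for 6 h to LPS at 200 ng/ml together with IFN-γ at 10 ng/ml, a state called M1 here. Each of the 4 groups had 2 arrays. The labels do not say whether the arrays of a group came from separate mice or cultures, so the p-values measure the spread between these arrays, which may be technical.

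The p53 protein is a transcription factor that is kept scarce by Mdm2, a ubiquitin ligase that marks it for degradation. When DNA damage, nitrosative stress or other signals release it from Mdm2, p53 binds near its target genes and raises their transcription, Mdm2 among them, so that the pathway limits itself. Its targets stop the cell cycle (Cdkn1a, Gadd45a), start mitochondrial apoptosis (Bax, Bbc3) or curb oxidative stress and growth signalling (Sesn1, Trp53inp1), and several of them also answer to NF-κB, STAT or FOXO factors without p53. Nitric oxide is known to stabilise p53 in macrophages, and Cdkn1a is known as a gene that LPS and interferon raise in these cells.

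The promoters of 4 members that moved in different ways are shown, because they share a p53 half-site, the 10-base element of which a pair makes a full p53 binding site. RefSeq windows on GRCm38.p6 were matched by symbol for 9 of the 10 members (13 windows, since some genes have several starts). Each line gives the 250 bases before a transcription start, read 5′ to 3′ on the gene's strand, with p53 half-sites in capitals.
Cdkn1a chr17:29090729-29090978 (+ strand): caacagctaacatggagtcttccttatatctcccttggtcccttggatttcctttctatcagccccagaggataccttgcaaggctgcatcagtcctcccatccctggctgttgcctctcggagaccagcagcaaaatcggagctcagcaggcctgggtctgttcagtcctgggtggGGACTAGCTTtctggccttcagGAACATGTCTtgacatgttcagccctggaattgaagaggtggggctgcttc
Mdm2 chr10:117710759-117711008 (- strand): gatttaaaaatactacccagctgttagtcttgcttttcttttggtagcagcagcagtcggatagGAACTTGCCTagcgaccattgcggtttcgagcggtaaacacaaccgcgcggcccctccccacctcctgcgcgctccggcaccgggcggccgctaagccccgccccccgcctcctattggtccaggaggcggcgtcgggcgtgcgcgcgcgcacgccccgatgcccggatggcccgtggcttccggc
Gadd45a chr6:67037408-67037657 (- strand): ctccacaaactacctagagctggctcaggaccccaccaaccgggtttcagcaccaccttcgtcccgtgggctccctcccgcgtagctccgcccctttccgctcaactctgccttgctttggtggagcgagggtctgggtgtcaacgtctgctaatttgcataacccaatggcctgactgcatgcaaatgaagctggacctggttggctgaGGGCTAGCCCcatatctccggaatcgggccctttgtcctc
Sesn1 chr10:41887189-41887438 (+ strand): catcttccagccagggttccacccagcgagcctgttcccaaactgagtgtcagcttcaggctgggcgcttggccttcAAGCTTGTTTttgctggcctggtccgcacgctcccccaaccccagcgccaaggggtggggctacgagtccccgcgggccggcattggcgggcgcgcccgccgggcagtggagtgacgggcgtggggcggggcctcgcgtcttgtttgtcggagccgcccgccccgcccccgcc
The element was searched by its consensus, which reads the same on both strands. It was present in 7 of the 13 windows, 1 each for Trp53, Cdkn1a, Mdm2, Ccng1, Bax, Gadd45a and Sesn1, against 7.13% of all 32851 windows. The Cdkn1a window shown held 2 half-sites, which began 73 and 51 bases before the start. They were separated by no more than 13 bases, the widest gap allowed here. Such a pair was present in 0.0639% of all windows. Only exact matches of the consensus were marked. The bases tgacatgttc directly after GAACATGTCT miss the consensus only at their first base and stay in lower case. Which of these elements pair as a binding site was not tested. The single half-site began 186 bases before the start in Mdm2, 40 in Gadd45a and 173 in Sesn1. None of the windows of Bbc3 (3) and Gadd45b (1) matched. Cdkn1a and Sesn1 each had another window, at chr17:29093519-29093768 and chr10:41810324-41810573, and neither of these matched. These matches describe the letters only, and the genes that carried one moved in both directions.

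Between 46.0% and 49.3% of probes were detected per array, and rank-invariant scaling multiplied the intensities by 0.839 to 1.35. All values are log2 of the scaled intensity, in arbitrary units. The probe for Nos2, the gene of iNOS, was undetected on the 4 unstimulated arrays and read 7.52 and 7.10 on the WT M1 arrays against 7.59 and 7.76 on the arrays labelled iNOS-/- M1. The difference of 0.37 (SE 0.32) was not significant (limma, adjusted p = 0.390). The probe begins at base 3546 of the transcript, and the sources used here do not say which part of the gene the allele removes, so it may lie outside that part and then checks nothing. Every direction given between genotypes therefore rests on the labels. The macrophage markers Csf1r, Adgre1, Cd68, Itgam and Lyz2 were detected on all 8 arrays.

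Several marker lists of other cell states moved with the same groups as the p53 genes. The summed scaled intensity of 11 tested genes of dividing cells was 1110 and 1142 on the WT unstimulated arrays, 3003 and 3120 in WT M1, 3488 and 3414 in labelled iNOS-/- unstimulated, and 1677 and 1667 in labelled iNOS-/- M1. Of these 11 genes, 9 were higher and 1 was lower in WT M1 than in WT unstimulated, beside 35.1% of all tested probes called either way. The counts were the same in labelled iNOS-/- against WT before stimulation, beside 32.1%. In labelled iNOS-/- M1, 1 was higher and 8 were lower than in WT M1, beside 48.5%. The counts were again the same against the labelled iNOS-/- unstimulated cells, beside 49.9%. The sum of 9 dendritic cell genes was 890 and 886 in WT unstimulated, 14776 to 18307 in the WT M1 and labelled iNOS-/- unstimulated arrays, and 39625 and 41404 in labelled iNOS-/- M1. It mostly follows the brightest genes, Ccl17 and Il4i1, with means of 14.33 and 13.84 in labelled iNOS-/- M1. Against WT unstimulated, 8 of the 9 were called higher and 0 lower in WT M1 and in labelled iNOS-/- unstimulated, beside 35.1% and 32.1% of all tested probes. In labelled iNOS-/- M1 against WT M1, 5 were called higher and 1 lower, beside 48.5%. Dpp4 was undetected on both WT unstimulated arrays, and Cd209a was undetected there and on both arrays labelled iNOS-/- M1. The sum of 8 granulocyte genes ran from 1197 to 1814 in the first 3 groups and was 4136 and 4280 in labelled iNOS-/- M1. It mostly follows S100a8, the brightest of them, with a mean of 11.59 in labelled iNOS-/- M1. S100a9, Camp and Ngp were undetected in WT unstimulated, but S100a8 had a mean of 9.92 there and Mmp8 its highest mean, 7.59. Of the 8 genes, 3 were called higher and 0 lower in labelled iNOS-/- M1 than in WT M1. The share over all tested probes was 48.5% either way. The part of these differences in the values below was not tested, and in bulk RNA a change in the share of a cell type cannot be told apart from a change of RNA per cell.

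After M1 activation, p53 target genes split between the genotypes. In arrays labelled iNOS-/-, Cdkn1a, Mdm2, Gadd45a and Gadd45b were higher than in WT M1, and Trp53, Trp53inp1 and Sesn1 were lower. By the brightest probe of each gene, 4 of 10 genes were called higher and 3 lower, and 4 and 5 under neqc (normexp background correction with quantile scaling) and under quantile scaling alone, where Ccng1 and Bax were added. By probe, 10 of 21 were called higher and 5 lower (limma, adjusted p under 0.05), beside 24.5% of all tested probes called higher and 23.9% called lower, or 48.5% either way. The 10 include the Mdm2 probe at base 1269 and the 5 the Sesn1 probe at base 63. Each passed the detection filter only through the group where it was brightest, so their calls add no support. The median absolute log2 difference was 1.12 over the member probes and 0.66 over all tested probes. Before stimulation, 4 member probes were higher in labelled iNOS-/- cells than in WT and 7, that Sesn1 probe among them, were lower. The shares over all tested probes were 16.1% in each direction and 32.1% either way. The count of member probes before stimulation was 7 (3 higher, 4 lower) when the fit held only the 4 arrays compared. Trp53, 2 Mdm2 probes and 1 Sesn1 probe were then no longer called.

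**Figure D1:**
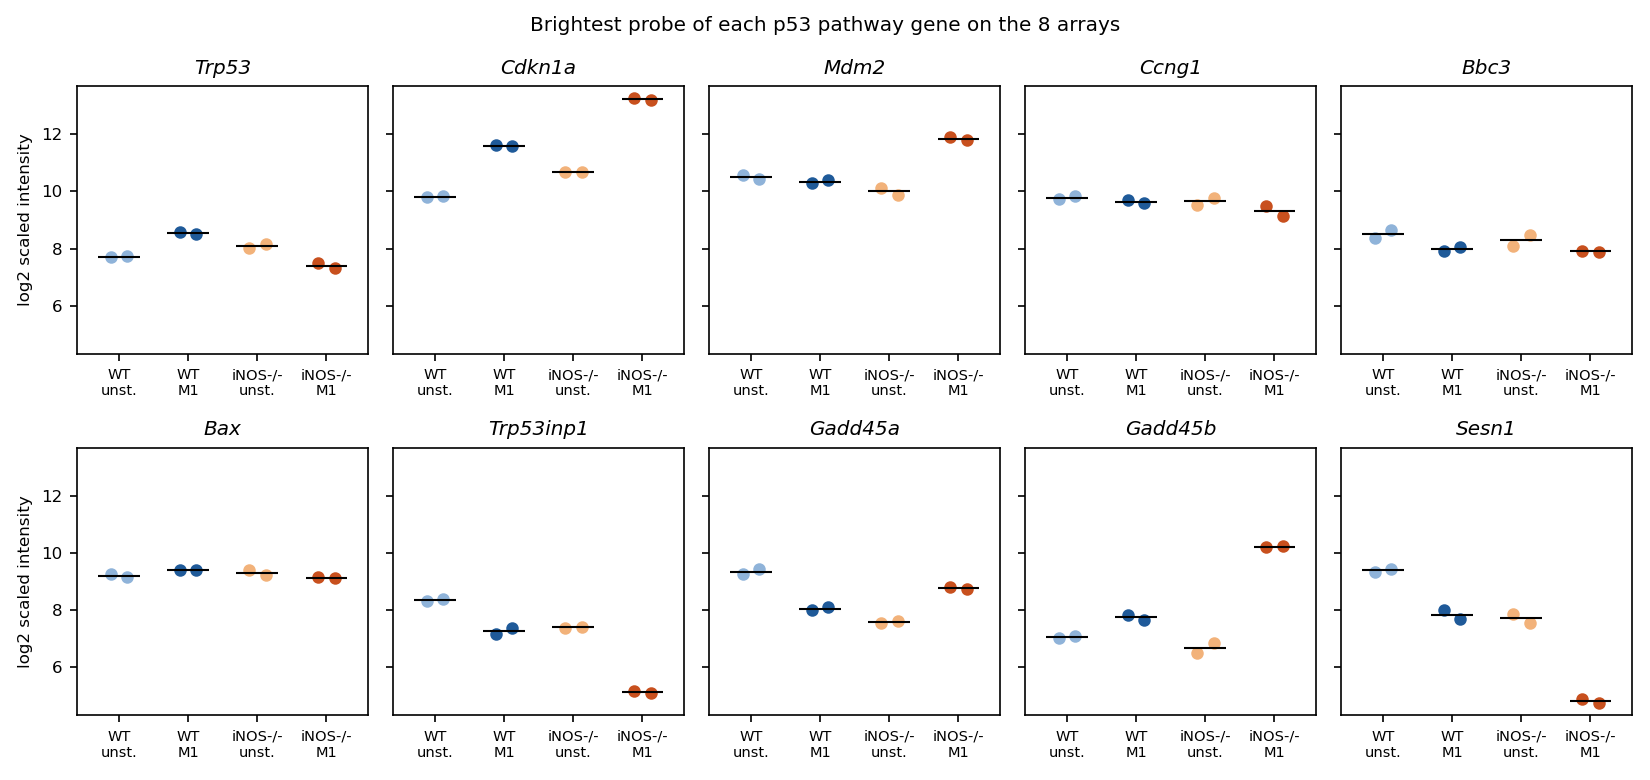
Log2 scaled intensity (vertical axis, arbitrary units) of the brightest probe of each of the 10 genes on the 8 arrays, by group. Points are single arrays and the bar is the mean of the 2 arrays of a group, with unst. for unstimulated and iNOS-/- groups as labelled. Cdkn1a reached 13.26 and 13.19 and Gadd45b 10.19 and 10.23 in labelled iNOS-/- M1, above all other arrays, where Sesn1 was lowest at 4.90 and 4.76.

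Trp53 mRNA moved the opposite way in the 2 genotypes. The probe read 7.71 and 7.73 in WT unstimulated, 8.58 and 8.50 in WT M1, 8.03 and 8.15 in labelled iNOS-/- unstimulated and 7.48 and 7.32 in labelled iNOS-/- M1. WT M1 was the highest group and labelled iNOS-/- M1 the lowest, and no group overlapped another. Trp53 rose by 0.82 (SE 0.10) on the log2 scale on activation of WT cells (limma, adjusted p = 0.00314) and fell by 0.69 in labelled iNOS-/- cells (limma, adjusted p = 0.00297). In M1 cells it was 2.21-fold lower in labelled iNOS-/- than in WT (log2 difference -1.14, SE 0.10, limma adjusted p = 0.000694). Before stimulation it was 1.29-fold higher in labelled iNOS-/- cells (limma, adjusted p = 0.0392), a call that was lost when any 1 of the 4 WT or 2 labelled iNOS-/- unstimulated arrays was left out (limma, adjusted p 0.0649 to 0.163).

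Mdm2, the ligase that holds p53 down, was raised by activation in the labelled iNOS-/- cells. The probe at base 2905 read 10.56 and 10.45 in WT unstimulated, 10.29 and 10.39 in WT M1, 10.11 and 9.88 in labelled iNOS-/- unstimulated, and 11.89 and 11.79 in labelled iNOS-/- M1. The first 3 groups lay close together, with no overlap between the unstimulated ones, and the last lay above them all. That at base 2573 read 10.17 and 10.23, 10.43 and 10.49, 9.85 and 9.85, and 11.62 and 11.63 in the same order of groups. In labelled iNOS-/- cells these probes rose 3.59-fold and 3.42-fold on activation (limma, adjusted p = 0.00019 and 6.76e-05). Under neqc these log2 changes were 1.23 and 1.18 in place of 1.84 and 1.77, and still called. In WT cells the log2 differences were -0.16 and 0.26 (limma, adjusted p = 0.330 and 0.0525). In M1 cells Mdm2 was 2.83-fold and 2.24-fold higher in labelled iNOS-/- than in WT (limma, adjusted p = 0.000516 and 0.000354). Before stimulation it was 1.42-fold and 1.28-fold lower in labelled iNOS-/- cells (limma, adjusted p = 0.0253 and 0.0224), and for the probe at base 2905 this call was lost without either WT unstimulated array or without labelled iNOS-/- unstimulated array 2 (adjusted p 0.0712 to 0.114), and for the probe at base 2573 without any 1 of the 4 unstimulated arrays (0.0693 to 0.104). The third probe, at base 1269, was not well above background on 6 arrays and read 3.67 and 3.57 in labelled iNOS-/- M1, at least 1.74-fold above WT M1 and at least 2.39-fold above the labelled iNOS-/- unstimulated arrays. Such a bound sets the mean of the brighter group against the dimmest signal that was detected on each array of the dimmer one.

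Cdkn1a, which encodes the cyclin-dependent kinase inhibitor p21, rose on activation in both genotypes and was higher in the labelled iNOS-/- cells at both stages. The probe at base 1734 read 9.81 and 9.83 in WT unstimulated, 11.62 and 11.59 in WT M1, 10.66 and 10.69 in labelled iNOS-/- unstimulated, and 13.26 and 13.19 in labelled iNOS-/- M1. The groups ran in the same order on all 3 Cdkn1a probes, with no overlap: WT unstimulated, labelled iNOS-/- unstimulated, WT M1, labelled iNOS-/- M1. Over the 3 probes, WT cells rose 3.45- to 6.16-fold on activation and labelled iNOS-/- cells rose 5.12- to 5.86-fold. In M1 cells Cdkn1a was 3.07-, 2.18- and 1.99-fold higher in labelled iNOS-/- than in WT for the probes at bases 1734, 1611 and 1428 (limma, adjusted p = 0.000196, 0.00148 and 0.00317). Before stimulation the 3 probes were 1.81-, 1.88- and 2.10-fold higher (limma, adjusted p = 0.00134, 0.00498 and 0.00413). None of these calls was lost in any of the 18 other settings tried, but neqc made the values at base 1734 smaller, 1.82 in place of 2.55 on the log2 scale for activation of labelled iNOS-/- cells and 1.04 in place of 1.62 for the genotype difference in M1 cells.

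Ccng1, a cyclin that p53 induces and that helps to activate Mdm2, gave different answers from its 3 probes. The probe at base 3203 read 9.13 to 9.84 over the 8 arrays and was not called in any comparison of the reported fit. Its log2 difference was -0.33 between genotypes in M1 cells and -0.33 on activation of labelled iNOS-/- cells. Each was called lower in 3 of the 18 other settings, over which the values ran from -0.56 to -0.15 and from -0.71 to -0.15. At base 1061 the signal was 6.80 to 7.08 on the first 6 arrays and 7.68 and 7.80 in labelled iNOS-/- M1. It was 1.81-fold higher there than in WT M1 (log2 0.86, SE 0.10, limma adjusted p = 0.00186). The third, at base 880, read 7.85 and 7.89 in WT unstimulated, 8.27 and 8.40 in WT M1, 8.16 and 8.03 in labelled iNOS-/- unstimulated, and 8.61 and 8.38 in labelled iNOS-/- M1. It rose 1.39-fold and 1.32-fold on activation of WT and labelled iNOS-/- cells (limma, adjusted p = 0.0296 and 0.0365). The WT call was lost without any 1 of the WT or labelled iNOS-/- unstimulated arrays (adjusted p 0.0518 to 0.124), and the labelled iNOS-/- call without any 1 array other than labelled iNOS-/- M1 array 2 (0.0537 to 0.152).

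The Gadd45 genes encode stress-induced small proteins that act on the cell cycle and on the p38 and JNK kinases. Gadd45a and Gadd45b moved in opposite directions on activation of WT cells. Both rose on activation of labelled iNOS-/- cells and were higher in labelled iNOS-/- M1 than in WT M1. Gadd45a at base 604 read 9.25 and 9.43 in WT unstimulated, 8.01 and 8.10 in WT M1, 7.56 and 7.63 in labelled iNOS-/- unstimulated, and 8.81 and 8.75 in labelled iNOS-/- M1. WT unstimulated was the highest group and labelled iNOS-/- unstimulated the lowest. On activation it fell 2.44-fold in WT cells (limma, adjusted p = 0.000732) and rose 2.26-fold in labelled iNOS-/- cells (limma, adjusted p = 0.000467). At base 739 the changes were 3.74-fold down and 2.20-fold up. Labelled iNOS-/- cells were 3.34-fold lower than WT before stimulation and 1.65-fold higher after it (limma, adjusted p = 0.000335 and 0.00292). Gadd45b, which NF-κB also induces, read 7.01 and 7.08, 7.83 and 7.67, 6.50 and 6.85, and 10.19 and 10.23 in the same order of groups. The last group stood more than 2 log2 units above every other array. Gadd45b rose 11.6-fold on activation of labelled iNOS-/- cells (limma, adjusted p = 5.45e-05) and 1.62-fold in WT cells (limma, adjusted p = 0.0159), and the WT call was lost without either WT unstimulated array or without WT M1 array 1 (adjusted p 0.062 to 0.0755). In M1 cells it was 5.52-fold higher in labelled iNOS-/- than in WT (limma, adjusted p = 0.000262).

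The apoptosis genes Bax and Bbc3 were not called on their brightest probes in any comparison. Bax, which opens the outer mitochondrial membrane, read 9.25 and 9.16 in WT unstimulated, 9.39 and 9.40 in WT M1, 9.39 and 9.23 in labelled iNOS-/- unstimulated, and 9.14 and 9.13 in labelled iNOS-/- M1. The M1 groups did not overlap, and the log2 difference of -0.26 (95% interval -0.49 to -0.03, limma adjusted p = 0.0678) missed the threshold. It was called in 7 of the 18 other settings, at -0.46 under neqc and -0.47 with quantile scaling alone. Bbc3, which encodes the BH3-only activator Puma, read 8.38 and 8.64, 7.93 and 8.06, 8.11 and 8.46, and 7.93 and 7.90 on the probe at base 1650, with a genotype difference of -0.08 in M1 cells (95% interval -0.48 to 0.32, limma adjusted p = 0.698). Its WT groups did not overlap, and the log2 difference on activation of -0.51 (95% interval -0.91 to -0.11, limma adjusted p = 0.0578) missed the threshold but was called in 7 of the 18 other settings. Its other probes, at bases 1508 and 1503, share 45 bases and lay near background, at most 4.78. The one at base 1508 was 1.44-fold higher in labelled iNOS-/- M1 than unstimulated (limma, adjusted p = 0.0336), while the probe at base 1650 was at -0.37 (limma, adjusted p = 0.105). That call was lost when any 1 array other than labelled iNOS-/- M1 array 2 was left out (adjusted p 0.0503 to 0.131).

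On their brightest probes, Sesn1 and Trp53inp1 were lower in the labelled iNOS-/- cells at both stages and fell on activation in both genotypes. Sesn1 encodes sestrin 1, an inhibitor of mTORC1 signalling, and Trp53inp1 a stress protein that works in autophagy and in p53-dependent cell death. Sesn1 at base 2281 read 9.34 and 9.44 in WT unstimulated, 8.01 and 7.67 in WT M1, 7.88 and 7.55 in labelled iNOS-/- unstimulated, and 4.90 and 4.76 in labelled iNOS-/- M1. The middle groups overlapped, and the last lay more than 2 log2 units below every other array. It fell 2.92-fold on activation in WT and 7.39-fold in labelled iNOS-/- cells (limma, adjusted p = 0.00251 and 0.000164). Labelled iNOS-/- cells were 3.19-fold lower than WT before stimulation and 8.06-fold lower after it (limma, adjusted p = 0.0020 and 0.000263). The second Sesn1 probe, at base 63, was detected only on the WT unstimulated arrays, at 3.74 and 3.04, at least 2.03-fold above labelled iNOS-/- unstimulated. The call there (limma, adjusted p = 0.0134) belongs to a fitted log2 difference of -2.71 that depends on the floor. It was lost in 2 of the 16 other settings that gave a value. The probe passed the detection filter only through the WT unstimulated arrays, so its calls add no support. This probe is counted as lower in M1 cells too, where both groups were below background and no fold is given. That call was lost in 9 of the 16 other settings, among them those without any 1 of the 4 M1 arrays. Its changes on activation were not called (limma, adjusted p = 0.0647 in WT and 0.316 in labelled iNOS-/- cells). Trp53inp1 at base 19 read 8.32 and 8.37, 7.16 and 7.36, 7.39 and 7.40, and 5.17 and 5.11. It was 1.93-fold lower in labelled iNOS-/- than in WT before stimulation and 4.35-fold lower in M1 cells (limma, adjusted p = 0.00206 and 0.000187). On activation it fell by 1.08 on the log2 scale in WT cells and by 2.26 in labelled iNOS-/- cells (limma, adjusted p = 0.0013 and 6.75e-05). At base 5108 it was 5.38-fold lower in M1 cells (limma, adjusted p = 0.00323) and fell by 2.75 on activation of labelled iNOS-/- cells (limma, adjusted p = 0.00183). This probe was not called before stimulation (log2 difference -0.77, limma adjusted p = 0.151) or on activation of WT cells (-1.08, limma adjusted p = 0.0605). Under neqc the M1 genotype difference was -1.52 in place of -2.43 at this probe and -2.39 in place of -3.01 for Sesn1 at base 2281, both still called.

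**Figure D2:**
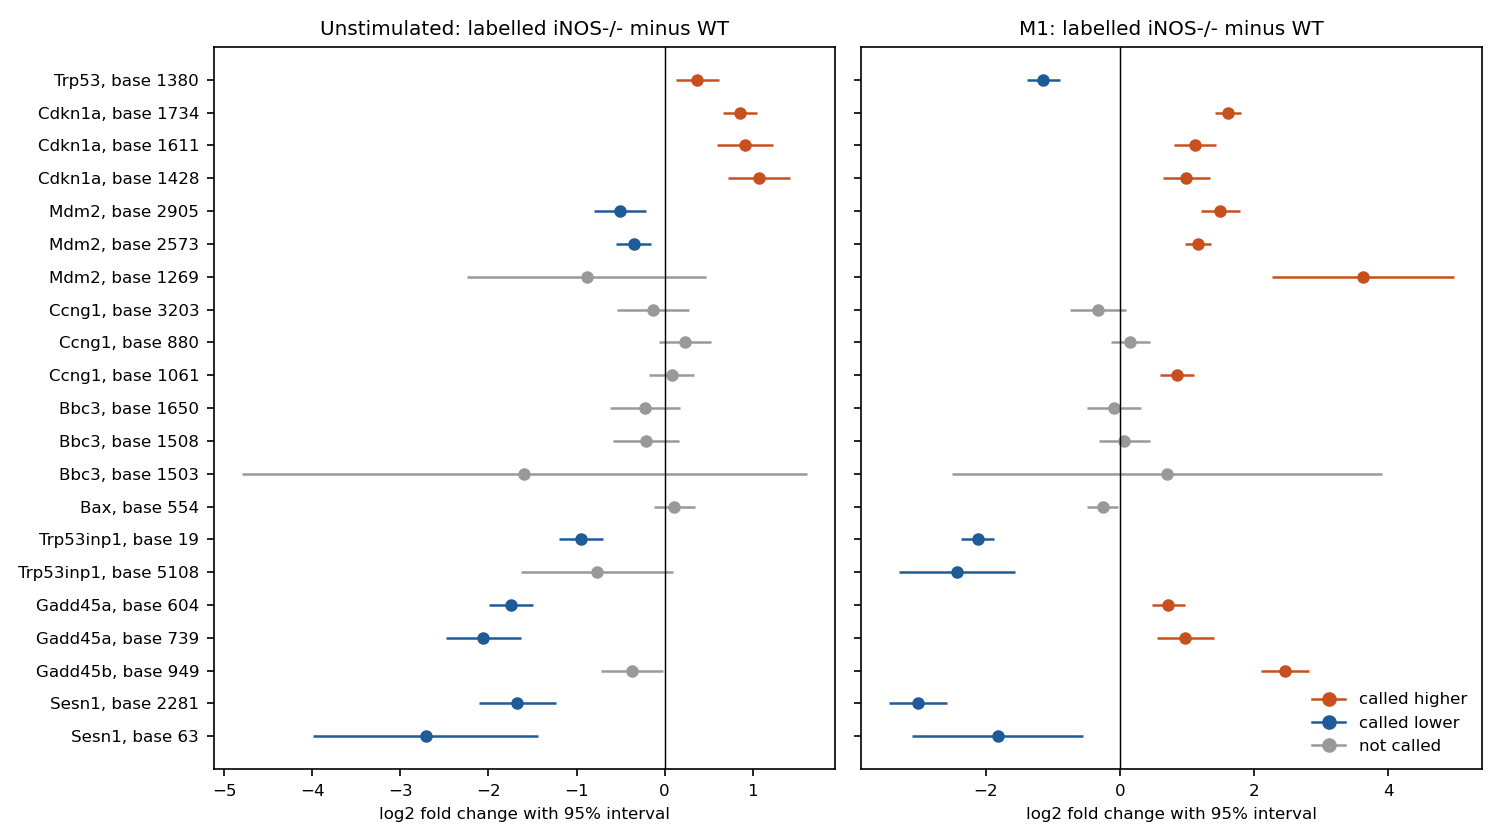
Log2 fold change of labelled iNOS-/- over WT (horizontal axis) for the 21 probes, unstimulated at left and M1 at right, each named by gene and the base of the transcript at which the probe begins. Points are limma estimates from 2 arrays a group, bars are 95% intervals and colour marks the call. Mdm2 and Gadd45a lay below 0 before stimulation and above 0 in M1 cells, and Trp53 lay above 0 and then below.

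In WT cells, activation raised 6 member probes and lowered 4, beside 20.1% and 14.9% of all tested probes and 35.1% either way. In labelled iNOS-/- cells it raised 12 and lowered 4, beside 26.4% and 23.6% and 49.9% either way. The 12, like the 8 larger responses counted below, include the Mdm2 probe at base 1269. That probe passed the detection filter only through labelled iNOS-/- M1. The split moved with the scaling. Under neqc it was 7 higher and 7 lower in WT and 11 higher and 7 lower in labelled iNOS-/- cells, and under quantile scaling it was 7 and 6, and 11 and 7. The difference of the responses between genotypes was called for 12 of 21 probes, 8 with the larger value in labelled iNOS-/- cells and 4 with the smaller, beside 21.0% and 21.1% of all tested probes and 42.1% either way (7 and 7 member probes under neqc). On the log2 scale the response in labelled iNOS-/- cells exceeded that in WT by 2.84 for Gadd45b, 2.47 and 3.04 for Gadd45a, and 2.01 and 1.52 for the brighter Mdm2 probes. It was lower by 1.51 for Trp53 (difference -1.51), by 1.34 for Sesn1 (-1.34 at base 2281) and by 1.17 for Trp53inp1 (-1.17 at base 19). Gadd45a and Trp53 changed direction between the genotypes, with each of the 2 responses called. For Cdkn1a the difference was 0.76 on the probe at base 1734 (limma, adjusted p = 0.00446) but 0.21 and -0.08 on the others (limma, adjusted p = 0.387 and 0.769), and on the first it was 0.02 under neqc and 0.01 under quantile scaling. Under neqc the probe at base 1428 was called with the smaller response in labelled iNOS-/- cells (-0.45, limma adjusted p = 0.0472), and under quantile scaling it was at -0.51 and not called (limma, adjusted p = 0.085). The Mdm2 differences of 2.01 and 1.52 were 1.37 and 0.90 under neqc, and still called.

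**Figure D3:**
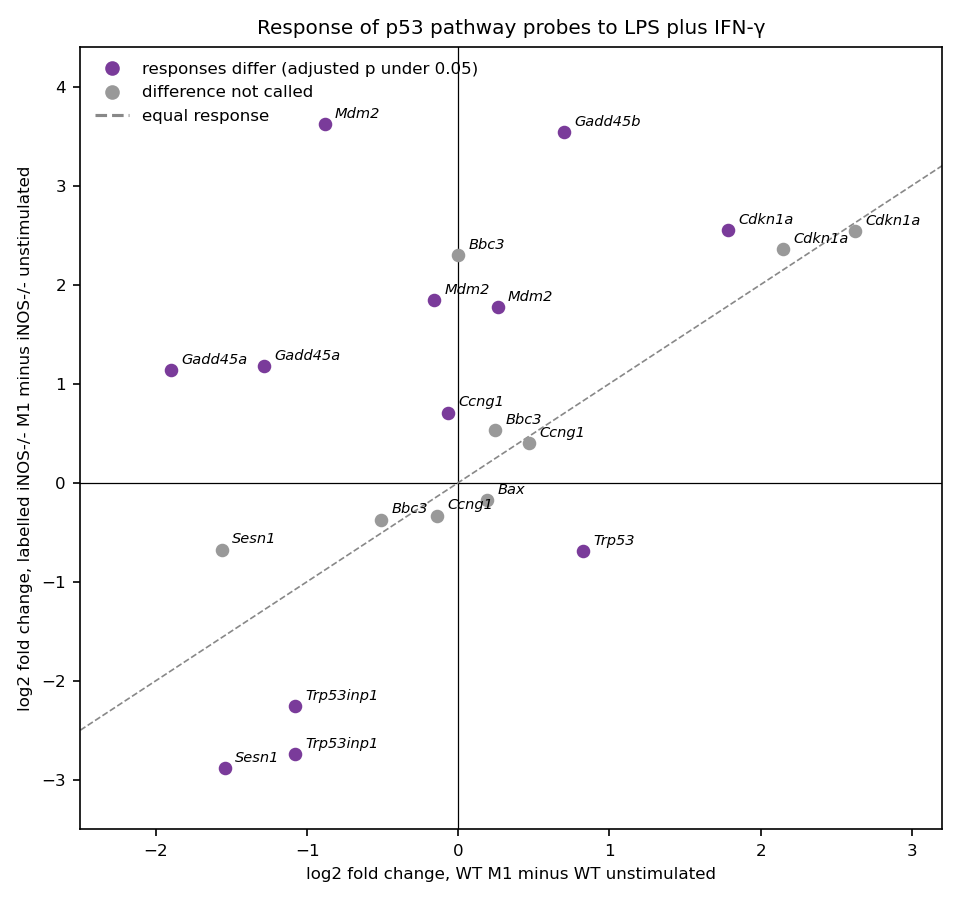
Log2 fold change on activation in WT cells (horizontal axis) against that in labelled iNOS-/- cells (vertical axis) for the 21 probes, from 2 arrays a group. The dashed line marks equal responses and purple points are the 12 probes whose responses differed by limma. Both Gadd45a probes sit at upper left and Trp53 at lower right, where the responses have opposite signs, and the 3 Cdkn1a probes lie at upper right near the line.

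A further 35 p53 target genes were fixed as a list, of which 31 were tested. In M1 cells 9 of these were higher in labelled iNOS-/- than in WT and 12 were lower, beside 48.5% of all tested probes called either way, with a median log2 difference of -0.08 against 0.01 over all tested probes. The 3 largest increases were in Ndrg1, a stress- and differentiation-related gene, by 1.90 (SE 0.17), in Sesn3, another sestrin, by 1.58 (SE 0.25; detected on 1 of the 2 WT M1 arrays), and in Rps27l, a ribosomal protein S27 paralogue, by 1.40 (SE 0.09). Ndrg1 read 6.64 and 6.35 in WT M1 and 8.39 on both arrays labelled iNOS-/- M1. The 3 largest decreases were in Phlda3, an inhibitor of Akt, at -2.66 (SE 0.13), in Gadd45g at -2.64 (SE 0.09), and in Sesn2 at -1.60 (SE 0.18). Gadd45g, the third Gadd45 gene, read 11.33 and 11.27 in WT unstimulated, 9.62 and 9.54 in WT M1, 9.57 and 9.44 in labelled iNOS-/- unstimulated, and 6.89 and 6.98 in labelled iNOS-/- M1. Its highest and lowest groups were those of Sesn1 and Trp53inp1.

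Before stimulation 9 of the 31 were higher in labelled iNOS-/- cells and 6 were lower, beside 32.1% of all tested probes either way. Sesn3 was at least 1.51-fold higher, Pmaip1, which encodes the BH3-only protein Noxa, was higher by 1.72 on the log2 scale and Gtse1, a cell cycle gene that restrains p53, by 1.63, while Gadd45g (-1.79), the kinase gene Plk2 (-1.58) and Dram1 (-1.18), a lysosomal autophagy gene, were lower. On activation 9 rose and 6 fell in WT cells, beside 35.1%. Pmaip1 rose by 1.76, Sesn2 by 1.63 and Gtse1 by 1.63, and Gadd45g (-1.72), the translesion polymerase gene Polk (-1.09) and Phlda3 (-1.07) fell. In labelled iNOS-/- cells 11 rose and 12 fell, beside 49.9%. Ndrg1 rose by 2.43, the death receptor gene Fas by 1.74 and Dram1 by 1.52, and Phlda3 (-2.58), Gadd45g (-2.57) and Zmat3 (-1.69), an RNA-binding p53 target, fell. The responses of 20 of the 31 differed between genotypes, 9 with the larger value in labelled iNOS-/- cells and 11 with the smaller, beside 42.1%. Dram1 (2.12), Ccng2 (2.02) and Plk2 (1.99) had the largest positive differences and Gtse1 (-3.07), Sesn2 (-3.02) and Fdxr (-1.75) the largest negative ones. All changes named in this paragraph passed limma's adjusted threshold.

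Of 20 listed regulators of p53, 19 had a probe and 14 were tested, and 6 were higher and 3 lower in labelled iNOS-/- M1 than in WT M1, beside 48.5% of all tested probes called either way. Cdkn2a, whose alternative product Arf blocks Mdm2, was undetected on the first 6 arrays. It read 4.17 and 4.03 in labelled iNOS-/- M1, at least 2.42-fold above WT M1. Cdkn2a passed the detection filter only through those 2 arrays, so its calls add no support to the counts here. The NF-κB genes Nfkb1 and Rela were higher by 1.46 (SE 0.08) and 1.25 (SE 0.08). Chek2, a kinase that activates p53 after DNA damage, was lower by a log2 difference of -2.06 (SE 0.14), the mitotic kinase gene Aurka by -1.12 (SE 0.14) and Hipk2, a kinase gene of p53-dependent apoptosis, by -0.61 (SE 0.19, limma adjusted p = 0.0456). Chek2 read 6.69 and 6.63, 5.86 and 5.72, 5.97 and 6.08, and 3.92 and 3.56 over the 4 groups, with the same highest and lowest group as Sesn1. Before stimulation 5 regulators were higher in labelled iNOS-/- cells, led by Aurka (1.29), Nfkb1 (1.11) and Trp53bp1 (0.95), and 1, Chek2, was lower (-0.63), so that 6 were called, beside 32.1% of all tested probes. On activation of WT cells 5 rose, led by Nfkb1 (2.16), the DNA damage kinase gene Atm (0.98) and Aurka (0.95), and 2 fell, Chek2 (-0.87) and Rchy1 (-0.72), beside 35.1% called. In labelled iNOS-/- cells 5 rose, among them Nfkb1 (2.51), Rela (1.26) and Cdkn2a (at least 3.33-fold), and 3 fell, Chek2 (-2.29), Aurka (-1.46) and Trp53bp1 (-0.55), beside 49.9% called. The responses of 6 differed, beside 42.1% of all tested probes, with Rela (1.14) and Cop1 (0.93) larger and Aurka (-2.41), Chek2 (-1.42), Trp53bp1 (-1.18) and Atm (-1.16) smaller in labelled iNOS-/- cells.

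**Figure D4:**
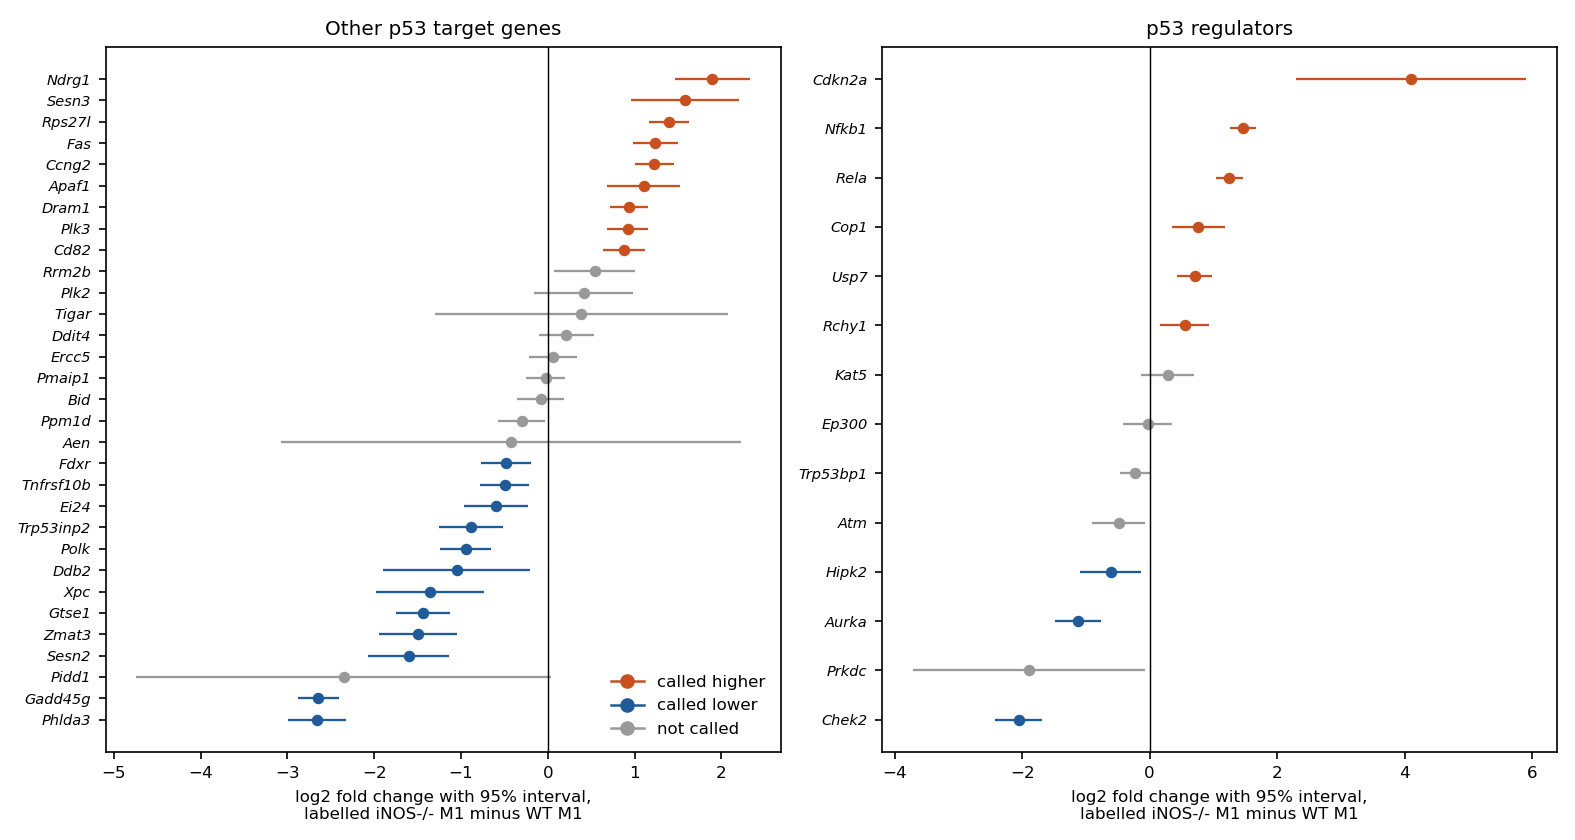
Log2 fold change of labelled iNOS-/- M1 over WT M1 (horizontal axis) for 31 other p53 target genes (left) and 14 p53 regulators (right), by the brightest probe of each gene. Points are limma estimates from 2 arrays a group with 95% intervals, and colour marks the call. The target genes spread from -2.66 for Phlda3 to 1.90 for Ndrg1, and the fitted value of Cdkn2a depends on the floor of the scale, since WT M1 was undetected.

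Among the members, Sesn1 and Trp53inp1 had the most similar profiles, with Pearson r = 0.991 between their brightest probes over the 8 arrays. Cdkn1a ran opposite to both (r = -0.954 and -0.970) and alongside Gadd45b (r = 0.922), and Mdm2 ran alongside Gadd45b (r = 0.951). The 8 points fall into 4 groups of 2 and share one scaling, so these values describe the order of the groups. Among 7334 genes detected on all arrays, Cdkn1a was most like Phf11, Pvrl2 and Mvp (r = 0.998 each), Mdm2 most like Spop (0.998), Hectd2 (0.995) and Dstn (0.995), and Gadd45b most like P2ry14 (0.999), Ube2z (0.998) and C330023M02Rik (0.998). Gadd45a was most like Rilpl2 (0.994), Mmp12 (0.991) and Rhob (0.990), and Trp53 most like Thoc5 (0.993) and Nfx1 (0.983). Bbc3 was most like Mrrf (0.971), Ssbp1 (0.957) and Ppa2 (0.950).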

How the data were processed

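Total RNA was hybridised to Illumina mouse bead arrays, which the series' sources name both as MouseRef-8 v2.0 and as MouseWG-8 v2.0. The deposited table gives, per the file headers, a non-normalized mean intensity and a detection p-value for each probe and array, made by the authors with GenomeStudio. The study's processing notes also name limma 3.14.4. About 26% of intensities on each array are below 0 (25.2% to 27.2%), so background had already been subtracted. Here a robust line through the origin set the scale of every array against the average of all arrays, over probes whose rank moved by less than 0.05 of itself and lay between 0.5 and 0.9 of the ranks, values under 1 were set to 1 and log2 was taken. A single model of 4 groups was fitted to probes that 2 or more of the 8 arrays detected (detection p under 0.05) (limma 3.58.1, R 4.3.3), with Benjamini-Hochberg adjustment over 13868 probes and a threshold of 0.05. The script was tested on simulated data. Probes are separate results, and a gene count uses its brightest probe. For the other gene lists the brightest probe stands for a gene, and the 3 largest called changes each way that were detected on both arrays of the higher group are named. For the 6 genes Trp53, Cdkn1a, Mdm2, Bbc3, Gadd45a and Gadd45b the 3 most correlated genes were taken, of which 1 is not reported here. The members and lists were chosen with earlier results of these data known. Promoter windows of 250 bases came from RefSeq, and the build of the probe coordinates is not given in the sources used here, so none are printed. With 2 arrays per group the number of arrays limits the precision. The alternatives tried were neqc, quantile scaling, an intercept in the scaling line, other floors and filters, a fit on the compared groups only, a replicate block, an intensity trend, averaged probes and leaving out each array. On this array Atr, Kit, Ly6g, Mki67 and Aurkb had no row with their symbol in the table used here.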

Additional observations from a re-analysis of the deposited data

Results flagged for a closer look

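The response to LPS plus IFN-γ differed between the genotypes, by limma's test of the difference of the log2 responses (labelled iNOS-/- minus WT), for 12 of the 21 member probes. The difference was positive for Mdm2 (2.01 at base 2905, 1.52 at base 2573 and 4.51 at base 1269), for Gadd45a (2.47 and 3.04), for Gadd45b (2.84), for the Ccng1 probe at base 1061 (0.78) and for the Cdkn1a probe at base 1734 (0.76). That Cdkn1a value was 0.0185 under neqc and 0.00916 under quantile scaling (limma, adjusted p = 0.922 and 0.959), and the other 2 Cdkn1a probes were not called (0.21 and -0.08). The value of 4.51 is a fitted one that depends on the floor, since that probe was undetected on 6 arrays. The probe passed the detection filter only through labelled iNOS-/- M1, so its call adds no support. The difference was negative for Trp53 (-1.51), for Trp53inp1 (-1.17 at base 19 and -1.66 at base 5108) and for Sesn1 (-1.34 at base 2281). Adjusted p by limma ran from 0.000392 for Gadd45a to 0.0419 for the Trp53inp1 probe at base 5108, whose call was lost when any array other than labelled iNOS-/- M1 array 1 was left out (0.0573 to 0.118). The direction of genotype in all of them rests on the labels, because the Nos2 probe gave no lower signal in labelled iNOS-/- M1 cells.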

How the results depend on the processing

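Of 105 member probe differences (21 probes in 5 comparisons), 64 were called, all 64 kept their sign and 53 kept sign and call in every alternative tried, up to 18 each. Of the 41 that were not called, 19 were called under at least 1 alternative. With each array left out in turn, 14 to 15 member probes were called between genotypes in M1 cells, 8 to 11 before stimulation, 8 to 11 on activation of WT cells, 14 to 16 on activation of labelled iNOS-/- cells and 11 to 12 for the difference of responses. The fit on the compared arrays only called 7 member probes in place of 11 before stimulation, and the cause was not tested beyond its fewer arrays.

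The 2 arrays of each group carry the numbers 1 and 2. The labels do not say whether same-numbered arrays share a mouse or culture. Deviations of same-numbered arrays correlated at -0.034 to 0.027 over 9687 probes, which shows no broad shared shift but cannot exclude a small one. With the replicate number as a block, 15, 10, 10, 14 and 11 member probes were called in the comparisons in the order above, against 15, 11, 10, 16 and 12.

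Scaling moved the median of all tested probes by over 0.1 in places. On activation of WT cells it was 0.07, and -0.04, -0.06 and -0.08 under neqc, quantile scaling and an intercept. In labelled iNOS-/- cells it was 0.05, and -0.06 and -0.13 under neqc and quantile scaling, and with an intercept the M1 genotype median went from 0.01 to 0.17 and that of the response difference from 0.01 to 0.24.

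Values that changed sign were not called in the reported fit. Under neqc and quantile scaling these were Bbc3 at base 1508 on WT activation (-0.0250 and -0.0484), Ccng1 at base 3203 before stimulation (0.0279 and 0.0283) and the response difference of Cdkn1a at base 1611 (-0.33 and -0.37). The response difference of Nos2 was 0.37 with a floor of 16, 0.0722 with an intercept and 0.22 under neqc. With 1 array left out, the ranges that crossed 0 were -0.11 to 0.25 (Bbc3 at base 1508, M1 genotype difference), -0.27 to 0.0037 (Ccng1 at base 3203, before stimulation), -3.40 to 0.22 and -0.72 to 0.71 (Bbc3 at base 1503, before stimulation and on WT activation), -0.15 to 0.0101 (Ccng1 at base 1061, WT activation), and, for the response difference, -0.23 to 0.0647 (Cdkn1a at base 1428), -0.0398 to 0.32 (Bbc3 at base 1650) and -0.19 to 0.0396 (Ccng1 at base 880). The cause of these changes was not tested. The dim probes of Mdm2 (base 1269) and Sesn1 (base 63) gave no value at a floor of 16 or under the stricter filter. A slide block was not run, since the headers name no slide. Signal near background limits these 2 probes and those of Bbc3 at bases 1508 and 1503.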
